A study of Mus musculus with 8 samples.

Results

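The 34 genes described here encode the enzymes that remove superoxide and peroxides, the thioredoxin and glutathione systems that recharge those enzymes, the NRF2 regulators of the response and both subunits of ferritin. They were chosen by symbol, with earlier results of these data known, and all 34 were found among the 22869 gene symbols of the count table. Their levels were read from RNA sequencing of cortex in APP/PS1 mice of the C57BL/6 strain, whose transgenes cause amyloid plaques. Bexarotene, which activates retinoid X receptors, had been given for 4 of the 8 libraries, and glycerol (0.2 mg/kg), the vehicle, for the other 4. All mice in both groups carried the transgenes. The sources used here do not give the dose or duration of bexarotene, the promoters of the transgenes, the age or sex of the mice, or how many animals a library holds. Since separate animals are not stated, the p-values cover only the variation among these libraries, part of which may be technical. By the sex-linked RNA given below, the vehicle libraries did not all come from the same animals.

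Superoxide leaks from mitochondria and oxidases and is turned into hydrogen peroxide by superoxide dismutases. Catalase, glutathione peroxidases and peroxiredoxins then remove the peroxide, and the last of these families are returned to their active form by glutathione or by thioredoxin. KEAP1 holds the transcription factor NRF2 in check, and oxidants or electrophiles release NRF2 to raise many of these genes. Ferritin stores iron, which would otherwise turn peroxide into hydroxyl radicals. In the brain, astrocytes make much of the glutathione, and microglia and oligodendrocytes hold much of the ferritin.

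Totals over all rows of the table were 60106192 to 76542067 counts in bexarotene libraries and 42413825 to 60955403 in vehicle libraries. The 34 genes had between 103 and 115517 counts in any library, and all 34 passed the filter on low counts. The defining markers of neurons, astrocytes and oligodendrocytes were present in all 8 libraries, with summed levels of 3165 to 4442 CPM (counts relative to the scaled library total) in bexarotene libraries against 3650 to 4404 CPM in vehicle libraries for neurons. Markers of other sources were uneven. Microglial markers summed to 318 to 425 CPM in bexarotene libraries, against 247 to 308 CPM in vehicle libraries, with all 6 of 6 markers higher. Choroid plexus markers summed to 74.9 to 1451 CPM in bexarotene libraries, against 17.0 to 41.1 CPM in vehicle libraries, mostly through Ttr. Striatal markers were highest in bexarotene replicates 1 and 3 (687 and 492 CPM) and vehicle replicate 1 (347 CPM). Red blood cell markers summed to 37.7, 9.89, 24.8 and 4.6 CPM in bexarotene replicates 1 to 4, against 7.71 to 16.9 CPM in vehicle libraries. The liver gene Alb was at 22.6 to 69.4 CPM in bexarotene libraries. Among vehicle libraries it was at 0.0705 and 2.98 CPM in replicates 1 and 3 but 53 and 82.4 CPM in replicates 2 and 4. Xist, which marks female tissue, and 4 Y-linked genes were found together in each bexarotene library (Xist 84.7 to 218 CPM, Y-linked sum 9.81 to 88.5 CPM). In vehicle libraries they were apart, with Xist in replicates 1 and 3 (248 and 307 CPM) and Y-linked RNA in replicates 2 and 4 (134 and 141 CPM). Sex and treatment therefore cannot be told apart in full. In bulk tissue, fewer cells of a type and less RNA per cell cannot be told apart either.

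Most of the antioxidant genes had slightly more RNA under bexarotene, and none passed the test over all genes. A positive log2 fold change was found in 27 of 34, against 50.2% of all 16069 genes tested, and their median was 0.14, against 0 over all genes. The largest differences were those of the NADPH quinone reductase gene Nqo1, the copper-zinc dismutases Sod1 and Sod3, the ferritin light chain gene Ftl1 and the glutathione transferase gene Gstp1, between 0.31 and 0.46 on the log2 scale. The mitochondrial dismutase gene Sod2 and the lipid peroxidase gene Gpx4 had the lowest values, at -0.16 and -0.19. The smallest adjusted p was 0.375 in edgeR's quasi-likelihood test, which called 0.00622% of all genes higher and 0% lower. DESeq2 called 0 of the 34 as well, with 0.485% of all genes called higher and 0.162% lower.

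An unadjusted p under 0.05 was found for 11 of the 34 genes (32.4%), all of them higher with bexarotene, against 4.88% higher and 3.89% lower over all genes. The bexarotene libraries lay entirely above the vehicle libraries in 8 of the 34 (23.5%), against 3.61% of all genes. In 0 of them did the groups separate in the other direction, against 2.16% of all genes. The genes were chosen with earlier results of these data known, so these shares describe the list and are no test of it. These 8 were Sod1, Sod3, Prdx6, Txn1, Gss, Gstp1, Keap1 and Ftl1. Bexarotene replicate 1 was the highest of the 8 libraries for 13 of the 34 genes, and vehicle replicate 1 the lowest for 12. Leaving out 1 library at a time gave 8 to 13 separated genes. Groups that are apart over all 8 libraries stay apart when 1 is removed, save for small changes in scaling. A count of at least 8 was therefore all but fixed in advance and is no support. The most separated genes, 13, came without vehicle replicate 4, with 12 of them higher under bexarotene. Of all genes, 5.67% separated higher and 3.85% lower in those 7 libraries.

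**Figure D1:**
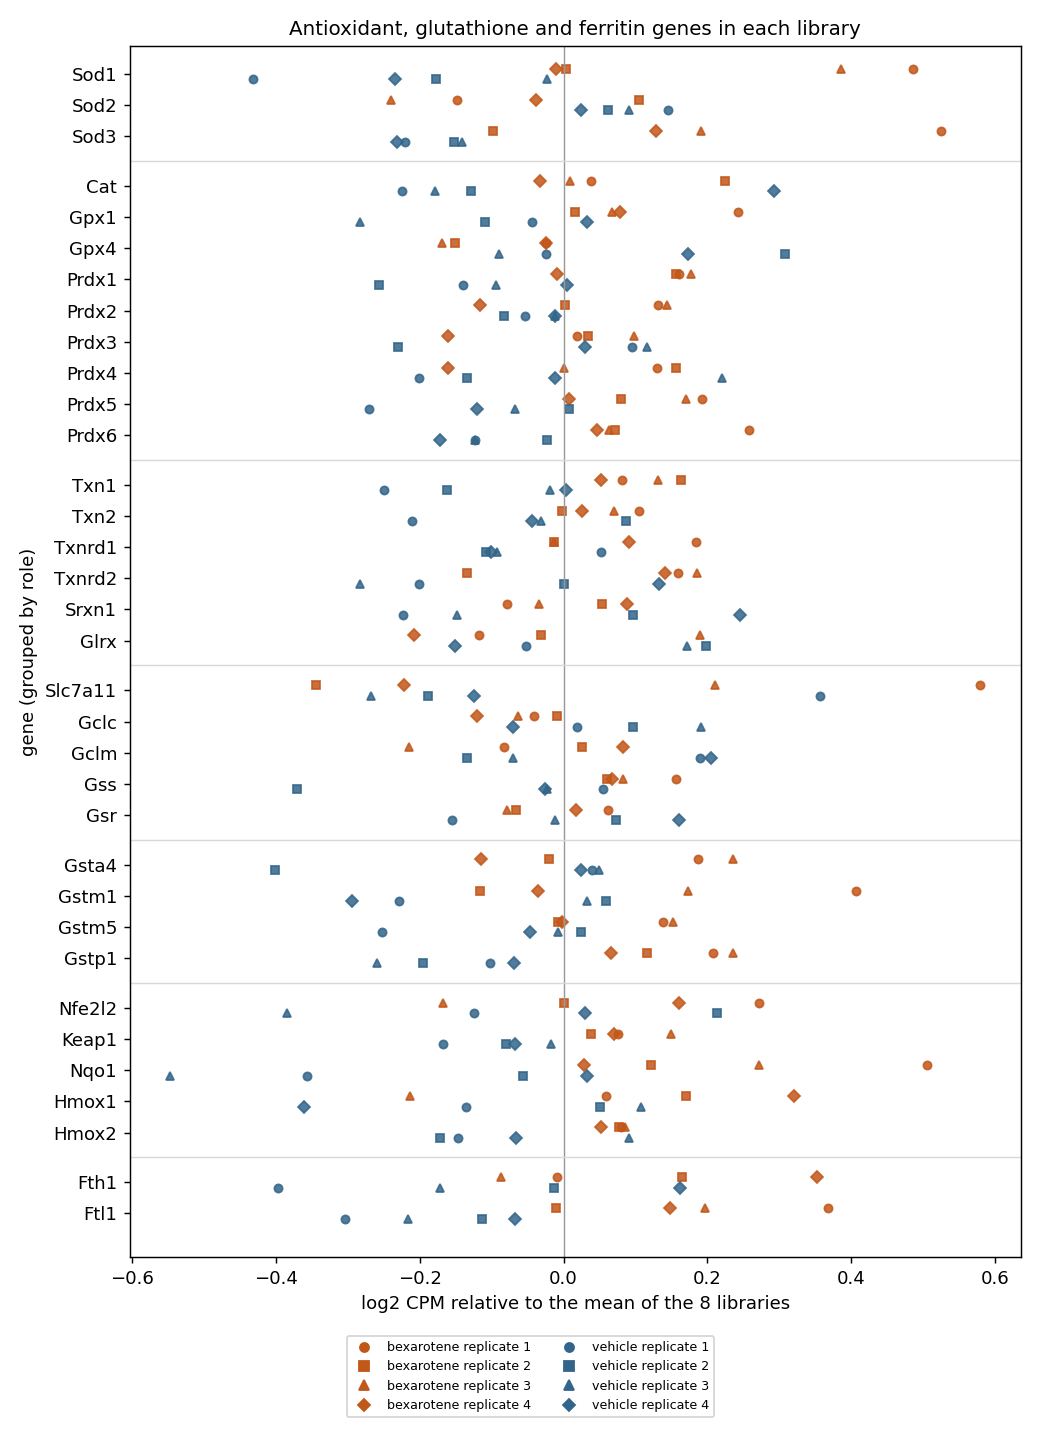
Level of each of the 34 genes in each library, as log2 CPM relative to the mean over the 8 libraries, with genes in rows grouped by role, bexarotene above vehicle in each row, and a symbol shape for each replicate number. Bexarotene replicate 1 is the highest library for 13 genes and vehicle replicate 1 the lowest for 12, and the groups are fully apart in 8 genes.

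Of the superoxide dismutases, 2 of 3 had positive log2 fold changes with groups that did not overlap, and 0 passed. Sod1, the enzyme of the cytosol, was at 74.5, 53.3, 69.5 and 52.8 CPM in bexarotene replicates 1 to 4 and at 39.4, 47.0, 52.3 and 45.2 CPM in vehicle replicates 1 to 4. The groups did not overlap, but bexarotene replicates 2 and 4 lay within 1 CPM of vehicle replicate 3. Its log2 fold change was 0.44 ± 0.13 (SE), 35.9% higher under bexarotene, (adjusted p = 0.445). Sod3, the secreted form that binds to cell surfaces and vessels, was at 20.8, 13.5, 16.5 and 15.8 CPM in bexarotene libraries against 12.4, 13, 13.1 and 12.3 CPM in vehicle libraries. The 4 vehicle libraries were nearly equal and all lay below the bexarotene libraries, and the log2 fold change was 0.39 ± 0.13, adjusted p = 0.477. Sod2, the manganese enzyme of mitochondria, averaged 91.9 ± 9.55 CPM with bexarotene and 102 ± 3.86 CPM with vehicle (SD, n = 4 each), a log2 fold change of -0.16 ± 0.09 with overlapping groups. Per kilobase of transcript, Sod1 was at 97.5 CPM with bexarotene and 71.8 CPM with vehicle, above Sod2 (15.7 and 17.5 CPM) and Sod3 (4.46 and 3.40 CPM). Ccs, the chaperone that loads copper into Sod1, averaged 10 ± 0.923 CPM in bexarotene libraries and 8.13 ± 0.646 CPM in vehicle libraries (SD, n = 4 each), a log2 fold change of 0.30 ± 0.12 with overlapping groups.

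Among the 9 peroxide-removing enzymes, 7 had a positive log2 fold change, 4 at an unadjusted p under 0.05 and 0 after adjustment. Prdx6, a peroxiredoxin with phospholipase activity that repairs oxidized membrane lipids and is strong in astrocytes, had 198, 174, 173 and 171 CPM in bexarotene replicates 1 to 4 and 152, 163, 152 and 147 CPM in vehicle replicates 1 to 4. It was the 1 enzyme of this group whose libraries separated fully, with a log2 fold change of 0.22 ± 0.08 and an adjusted p of 0.499. Prdx1, a cytosolic peroxiredoxin and NRF2 target, had 61.2, 61.0, 61.9 and 54.4 CPM in bexarotene libraries and 49.7, 45.8, 51.3 and 54.9 CPM in vehicle libraries. Only bexarotene replicate 4 and vehicle replicate 4 crossed, and the log2 fold change was 0.24 ± 0.08, adjusted p = 0.481.

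Prdx5, found in mitochondria, peroxisomes and cytosol, had the highest level per kilobase of the peroxide enzymes, at 99.7 CPM with bexarotene and 85.4 CPM with vehicle. Its levels were 133, 123, 131 and 117 CPM in bexarotene replicates 1 to 4 and 96.4, 117, 111 and 107 CPM in vehicle replicates 1 to 4. Bexarotene replicate 4 and vehicle replicate 2 were level, and the log2 fold change was 0.22 ± 0.08. Gpx1, the main cytosolic glutathione peroxidase, was at 68.6, 58.6, 60.7 and 61.2 CPM in bexarotene libraries and 56.2, 53.7, 47.6 and 59.3 CPM in vehicle libraries. Vehicle replicate 4 fell inside the bexarotene range, and the log2 fold change was 0.20 ± 0.09.

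The groups overlapped for the other peroxide enzymes. Catalase, the enzyme of peroxisomes, averaged 41.0 ± 3.34 CPM with bexarotene and 38.1 ± 6.77 CPM with vehicle (SD, n = 4 each). Its log2 fold change was 0.11 ± 0.12. Only vehicle replicate 4, at 48.1 CPM, kept its groups from separating, so their separation without it (0.25 ± 0.09) was fixed in advance and is no support. Prdx2, abundant in neurons, had a log2 fold change of 0.08 ± 0.08, the mitochondrial Prdx3 one of -0.01 ± 0.10 and Prdx4, of the endoplasmic reticulum, one of 0.06 ± 0.13. Gpx4, which reduces lipid peroxides in membranes and so restrains ferroptosis, averaged 17.0 ± 0.929 CPM with bexarotene and 19.4 ± 2.46 CPM with vehicle, a log2 fold change of -0.19 ± 0.11. Vehicle replicates 2 and 4 (22.4 and 20.4 CPM) stood above all bexarotene libraries, while vehicle replicates 1 and 3 lay among them.

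In the thioredoxin system 5 of 6 genes had a positive log2 fold change, and 0 passed. Txn1, the cytosolic thioredoxin that reduces peroxiredoxins and ribonucleotide reductase, was at 34.1, 36.1, 35.3 and 33.4 CPM in bexarotene replicates 1 to 4 and at 27.1, 28.8, 31.8 and 32.3 CPM in vehicle replicates 1 to 4. The groups were apart by a narrow margin at vehicle replicate 4, and the log2 fold change was 0.21 ± 0.08 (adjusted p = 0.549). Txn2, its mitochondrial counterpart and the gene of this group with the most RNA per kilobase (65.7 CPM with bexarotene, 61.5 CPM with vehicle), was at 88.6, 82.3, 86.5 and 83.9 CPM in bexarotene libraries and 71.2, 87.5, 80.6 and 79.9 CPM in vehicle libraries. Its groups overlapped through vehicle replicate 2. The thioredoxin reductase genes Txnrd1 and Txnrd2 had log2 fold changes of 0.12 ± 0.08 and 0.17 ± 0.12.

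Srxn1, which repairs over-oxidized peroxiredoxins and is a strong NRF2 target in other tissues, averaged 84.3 ± 4.49 CPM with bexarotene and 84.1 ± 12.8 CPM with vehicle (SD, n = 4 each). Its libraries were ordered by replicate number instead: replicates 2 and 4 of both groups held 87.0 to 99.4 CPM and replicates 1 and 3 held 71.8 to 81.9 CPM. Among all genes, 7.22% separated in that way with replicates 2 and 4 higher and 6.47% with them lower, so 1 of 34 in each direction is below the background. Glrx, the cytosolic glutaredoxin, had a log2 fold change of -0.09 ± 0.12.

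Genes that supply glutathione showed no common direction, with 2 of 5 positive and a median log2 fold change of -0.04. Gss, which adds glycine in the last step of glutathione synthesis, was at 9.99, 9.35, 9.49 and 9.39 CPM in bexarotene replicates 1 to 4 and at 9.31, 6.93, 8.82 and 8.81 CPM in vehicle replicates 1 to 4. The groups did not overlap, although bexarotene replicate 2 and vehicle replicate 1 were nearly level, and the log2 fold change was 0.18 ± 0.12 (adjusted p = 0.738). Gclc, the catalytic subunit of the rate-limiting ligase, had the most RNA per kilobase of the 5, at 11.5 CPM with bexarotene and 12.5 CPM with vehicle. It was at 39.9, 40.8, 39.3 and 37.8 CPM in bexarotene libraries and 41.6, 43.9, 46.9 and 39.1 CPM in vehicle libraries, a log2 fold change of -0.12 ± 0.08. The modifier subunit gene Gclm (-0.10 ± 0.11) and the glutathione reductase gene Gsr (-0.04 ± 0.09) had overlapping groups as well.

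Slc7a11, the cystine importer that feeds glutathione synthesis, varied widely between libraries of a group. Its levels were 44.8, 23.6, 34.7 and 25.7 CPM in bexarotene replicates 1 to 4 and at 38.4, 26.3, 24.9 and 27.5 CPM in vehicle replicates 1 to 4. The 3 highest libraries, bexarotene replicates 1 and 3 and vehicle replicate 1, were also the 3 with the most striatal marker RNA, and the part of that RNA in the result was not tested. The log2 fold change was 0.14 ± 0.22, and leaving out 1 library gave -0.06 (without bexarotene replicate 1) to 0.30 (without vehicle replicate 1).

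All 4 glutathione transferase genes, which conjugate glutathione to electrophiles, had positive log2 fold changes, with a median of 0.18. Gstp1, the pi-class enzyme, was at 37.2, 34.9, 37.9 and 33.7 CPM in bexarotene replicates 1 to 4 and at 30, 28.1, 26.9 and 30.7 CPM in vehicle replicates 1 to 4. Its groups were clearly apart, and with a log2 fold change of 0.31 ± 0.08 (24.1% higher) and an adjusted p of 0.375 it ranked 131 by p among all genes, the first of the 34. Gstp2, a near-identical neighbour, was at 0.102 to 0.173 CPM in bexarotene libraries and 0.282 to 0.741 CPM in vehicle libraries, and its name was added after its values were seen. Reads can be shared between the copies; Gstp2 had 7 to 43 counts in a library and Gstp1 1278 to 2595.

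Gstm5, a mu-class enzyme, was the transferase with the most RNA per kilobase, at 103 CPM with bexarotene and 93.6 CPM with vehicle. Its levels were 102, 92.2, 103 and 92.5 CPM in bexarotene replicates 1 to 4 and at 77.8, 94.2, 92.2 and 89.7 CPM in vehicle replicates 1 to 4. Vehicle replicate 2 exceeded bexarotene replicates 2 and 4, and the log2 fold change was 0.14 ± 0.08. Gstm1, the mu-class enzyme of astrocytes, averaged 115 ± 19.4 CPM with bexarotene and 98.6 ± 12.3 CPM with vehicle (SD, n = 4 each), with 140 CPM in bexarotene replicate 1. Gsta4, which detoxifies the lipid aldehyde 4-hydroxynonenal, had a log2 fold change of 0.14 ± 0.12 and was lower in replicates 2 and 4 of both groups (21.8 to 29.3 CPM) than in replicates 1 and 3 (29.6 to 33.9 CPM). The mu-class genes lie in a cluster of similar copies, so the division of reads among them is uncertain.

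The 5 genes of the NRF2 pathway and of heme breakdown all had positive log2 fold changes, between 0.13 and 0.46. Keap1, the adaptor that sends NRF2 to degradation, was at 62.7, 61.1, 66.0 and 62.5 CPM in bexarotene replicates 1 to 4 and at 53.0, 56.3, 58.8 and 56.8 CPM in vehicle replicates 1 to 4. The groups did not overlap, and the log2 fold change was 0.17 ± 0.07 (adjusted p = 0.56). Nfe2l2, which encodes NRF2 itself, averaged 15.3 ± 1.99 CPM with bexarotene and 14.0 ± 2.43 CPM with vehicle (SD, n = 4 each), a log2 fold change of 0.13 ± 0.15.

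Nqo1, a quinone reductase often used as a readout of NRF2, was the least abundant of the 34. Its levels were 4.40, 3.37, 3.74 and 3.16 CPM in bexarotene replicates 1 to 4 and at 2.42, 2.98, 2.12 and 3.17 CPM in vehicle replicates 1 to 4. Bexarotene replicate 4 and vehicle replicate 4 were level, and the log2 fold change of 0.46 ± 0.20, the highest of the 34, had an adjusted p of 0.573. The inducible heme oxygenase gene Hmox1 was also low, at 5.36 ± 0.813 CPM with bexarotene and 4.76 ± 0.673 CPM with vehicle. The constitutive form Hmox2, the most abundant of the 5 per kilobase (30.5 CPM with bexarotene, 27.6 CPM with vehicle), was at 53.0, 52.9, 53.2 and 52.0 CPM in bexarotene libraries and 45.3, 44.5, 53.4 and 47.9 CPM in vehicle libraries. Vehicle replicate 3 alone kept its groups from separating.

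NRF2 binds antioxidant response elements, and some of the promoters that hold such letters are shown to set them beside the values of their genes. A window from 250 bases before to 50 bases after the gene start was available from RefSeq (build GRCm38.p6) for 28 of the 34 genes. On either strand, TGANTCAGC, which contains the AP-1 site TGANTCA, was found for 3 of the 28 genes, against 1.37% of all 27025 symbols. The looser core TGACNNNGC was found for 7 of the 28 (25%), against 14% of all symbols, and the Prdx1 site matches both. The capitals mark the match, and the sequences run 5′ to 3′ on the strand of the gene.
Gstp1 (chr19:4037958-4038006, minus strand, match 74 to 66 bases before the start): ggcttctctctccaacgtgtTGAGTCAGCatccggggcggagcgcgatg
Prdx1 (chr4:116685446-116685494, plus strand, match on the opposite strand 133 to 125 bases before the start): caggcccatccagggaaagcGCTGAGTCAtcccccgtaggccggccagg
Srxn1 (chr2:152105459-152105507, plus strand, match 45 to 37 bases before the start): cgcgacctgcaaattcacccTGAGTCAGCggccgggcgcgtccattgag
Sod1, looser core only (chr16:90220686-90220734, plus strand, match on the opposite strand 56 to 48 bases before the start): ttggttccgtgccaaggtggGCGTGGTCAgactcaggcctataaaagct

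Of the 3 genes with the longer match, Gstp1 and Prdx1 had log2 fold changes of 0.31 and 0.24, and Srxn1 one of 0.0. The looser core was also found at another place in the Srxn1 window and in the windows of Nfe2l2, Gstm5, Gclm and Txnrd1, which are not printed. The log2 fold changes of these 4 ran from -0.10 to 0.14. Sod1, the only gene printed for the looser core alone, had a higher value, 0.44. A match in this window is a description of its letters and not evidence of binding. The counts had been made on the mm9 build, and no coordinate of that build is used here.

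Ferritin RNA was higher in bexarotene libraries for the light chain and overlapped for the heavy chain. Ftl1, whose chain lines the iron core, was at 134, 103, 119 and 115 CPM in bexarotene replicates 1 to 4 and at 84.1, 95.9, 89.3 and 99.0 CPM in vehicle replicates 1 to 4. The groups did not overlap, although bexarotene replicate 2 and vehicle replicate 4 were close, and the log2 fold change was 0.35 ± 0.10 (27.8% higher) (adjusted p = 0.393). Fth1, whose chain oxidizes ferrous iron, was the most abundant of the 34 genes by far, at 1407 CPM per kilobase with bexarotene and 1220 CPM per kilobase with vehicle. Its level was 1199, 1353, 1136 and 1541 CPM in bexarotene replicates 1 to 4 and 916, 1196, 1071 and 1350 CPM in vehicle replicates 1 to 4.

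Within each group, replicates 2 and 4 had more Fth1 than replicates 1 and 3, with 1 near tie across groups, and the log2 fold change was 0.21 ± 0.13. Oligodendrocyte markers were ordered in the same way, at 2134 to 2613 CPM in replicates 2 and 4 of both groups and 1165 to 1865 CPM in replicates 1 and 3. The sum of the microglial markers, given above, was higher in every bexarotene library than in any vehicle library, as Ftl1 was. The gap was narrow (318 against 308 CPM). Taken singly, 4 of the 6 markers separated, and P2ry12 and Csf1r overlapped. The part of either cell type in the ferritin values was not tested. Both ferritin genes have many processed copies in the genome, and reads shared with them can be split or dropped in counting.

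Translation of both ferritin chains is held back in low iron by an iron-responsive element near the 5′ end of the mRNA, which read counts do not measure. The 30 bases around each element are shown for comparison of the 2 chains, from GENCODE M21 transcripts on GRCm38, with the 6-base loop in capitals. Both lie in exon 1, in the 5′ UTR.
Fth1 (chr19:9982732-9982761, plus strand): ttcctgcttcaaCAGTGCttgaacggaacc
Ftl1 (chr7:45459778-45459807, minus strand): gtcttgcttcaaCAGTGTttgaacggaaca

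The pattern searched, a C, 5 free bases and CAGTGN, occurs by letters alone in the first 200 bases of 8.07% of 58616 coding transcripts. It was also found for Gclm, Keap1, Txn2, Txnrd1 and Txnrd2, for which no element is claimed. Both printed elements share the C, the 5 bases and the first 5 bases of the loop.

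Transcript length ran alongside the fold changes. The 34 genes have short transcripts, with a median of 1561 nt against 3170 nt over the 11530 genes whose mean exceeded 2 log2 CPM, and short transcripts were higher under bexarotene in general. Across the 34 genes the log2 fold change and the length had a Spearman rho of -0.35, and across the 11530 genes one of -0.47. Both are correlations across genes that share the same 8 libraries. By length, 33 of the 34 can be set beside these genes, since Nqo1 (1553 nt) lay under that level. Below 1000 nt, bexarotene libraries all exceeded vehicle libraries in 3 of 8 members (37.5%) and in 21.9% of all genes of that length. The shares were 2 of 12 (16.7%) against 7.91% from 1000 to 2000 nt and 3 of 10 (30%) against 2.52% from 2000 to 4000 nt. Above 4000 nt it was 0 of 3 against 0.72%. The median log2 fold change of members was 0.17 under 1000 nt, where all genes had 0.21, and 0.13 from 2000 to 4000 nt, where all genes had 0.

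**Figure D2:**
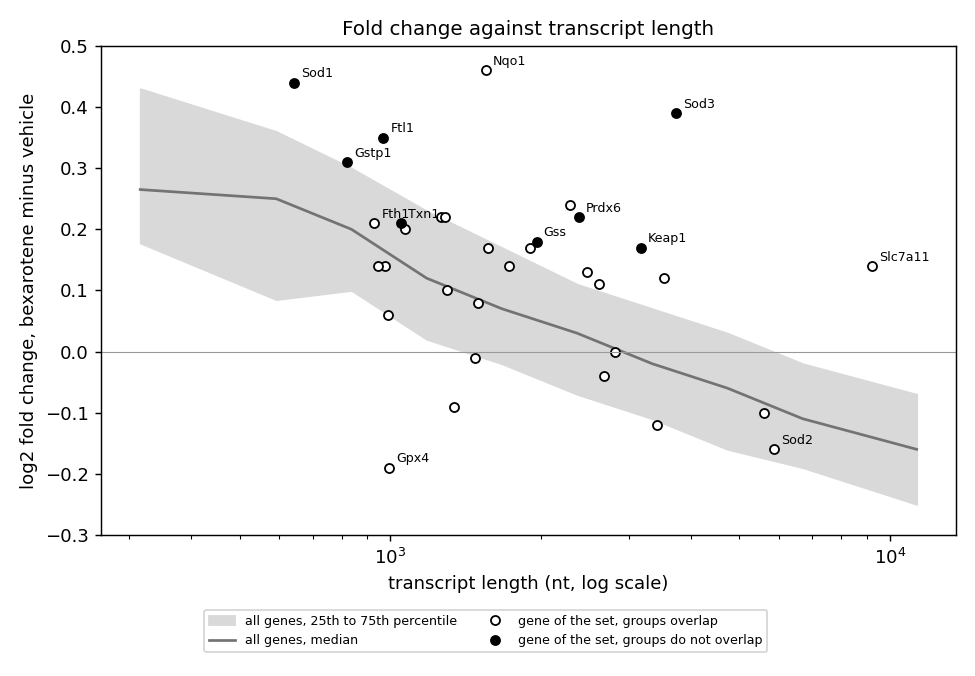
Log2 fold change (bexarotene minus vehicle) against transcript length in nucleotides on a log scale, with circles for the 34 genes, filled where the groups do not overlap, and the median and middle 50% of all genes in grey. Sod1, Gstp1, Ftl1 and Txn1 lie at the short end where all genes are shifted up, while Sod3, Prdx6 and Keap1 lie above the grey band at 2000 to 4000 nt.

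With an offset per library that removes the trend with length and GC content, the median of the 34 genes was 0.07 and the groups separated in 4 genes. Of the 8 that separated without the offset, 2 remained, Sod3 (log2 fold change 0.38 ± 0.13) and Prdx6 (0.21 ± 0.07). Prdx1 joined them at 0.30 ± 0.07, and Gpx4 separated in the other direction at -0.35 ± 0.10. With the offset, all 8 members under 1000 nt had lower values and the 3 over 4000 nt higher ones. The offset was fitted to these same libraries, so a shift of this kind follows from how it is built. It would also take out a treatment difference that runs with length. Sod1 (641 nt) was at 0.20 ± 0.09, Gstp1 (821 nt) at 0.09 ± 0.08, Ftl1 (968 nt) at 0.16 ± 0.07 and Fth1 (929 nt) at 0.04 ± 0.15. Gpx1 (1072 nt) was at 0.02 ± 0.09. The long transcripts of Sod2 (5861 nt) and Slc7a11 (9223 nt) were at 0.0 ± 0.07 and 0.40 ± 0.26. The share of all genes that separated upward was 2.41% with the offset, and 0 of the 34 passed.

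**Figure D3:**
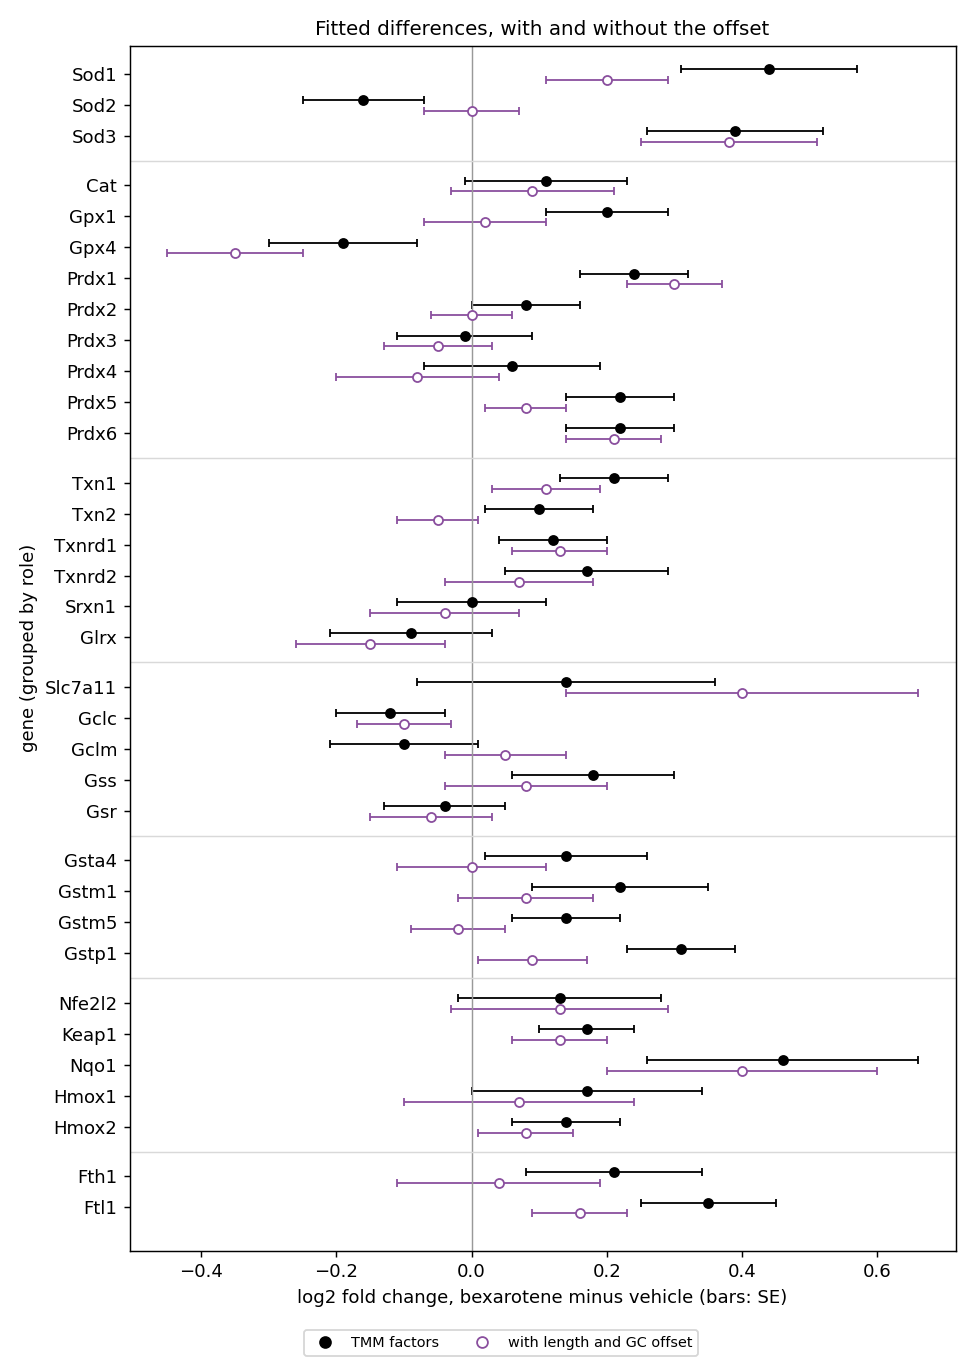
Log2 fold change, bexarotene minus vehicle, of each of the 34 genes with its standard error, from the fit with TMM factors (filled) and from the fit with the length and GC offset (open), grouped by role. Nqo1, Sod3, Prdx1 and Prdx6 have values of 0.21 or more in both, while Sod1, Gstp1, Ftl1 and Fth1 move towards 0 and Gpx4 moves from -0.19 to -0.35.

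The signed log2 difference was higher within replicates 1 and 3 than within replicates 2 and 4 for 25 of the 34 genes, and its size regardless of sign was larger there for 26. The median log2 fold change of the members was 0.22 in replicates 1 and 3 alone and 0.08 in replicates 2 and 4 alone. Sod1 differed by 0.66 on the log2 scale in replicates 1 and 3 but by 0.20 in replicates 2 and 4, and Ftl1 by 0.54 and 0.16. Nqo1 differed by 0.83 and 0.09, while Txn1 (0.24 and 0.19), Prdx1 (0.29 and 0.20) and Keap1 (0.20 and 0.13) were alike in both. Hmox1 went the other way, at -0.06 and 0.40. In replicates 1 and 3 alone, the quasi-likelihood test called 2 of the 34, Sod1 (log2 fold change 0.65 ± 0.14, adjusted p = 0.0473) and Ftl1 (0.55 ± 0.09, adjusted p = 0.0312), both higher. Of all genes it called 2.06% higher and 2.34% lower there, 710 in all. The share to set beside these 2 of 34 is the 2.06% called higher. With 2 calls, the count is too small to read as a result about the members. In replicates 2 and 4 alone it called 0% of genes in either direction. In replicates 1 and 3, 21 members separated upward and 3 downward, against 29.9% and 26.9% of all genes. In replicates 2 and 4, 12 separated upward and 4 downward, against 18.5% and 17.1%. Whether these pairs of libraries differ in the effect was not tested. In the vehicle group they also differ in sex-linked RNA, with Xist in replicates 1 and 3 and Y-linked RNA in replicates 2 and 4. The calls in replicates 1 and 3 rest on 2 libraries per group. There the Y-linked sum was 17.1 and 55.8 CPM with bexarotene and 0.282 and 0.251 CPM with vehicle. Treatment and sex-linked RNA thus cannot be told apart in those calls. Striatal markers summed to 687 and 492 CPM in bexarotene replicates 1 and 3, against 154 and 160 CPM in bexarotene replicates 2 and 4. Sex, tissue content and replicate number cannot be told apart here.

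**Figure D4:**
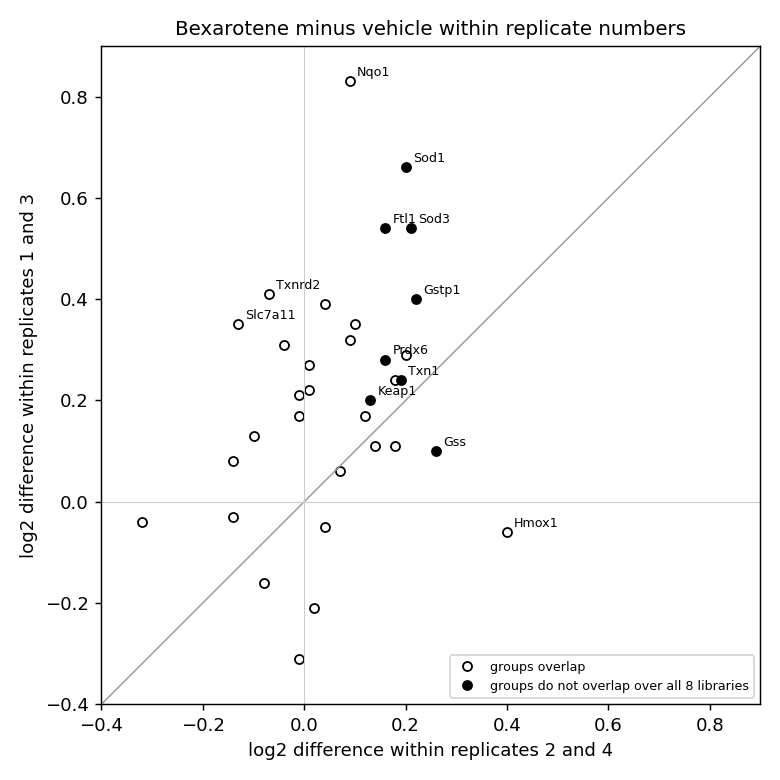
Log2 difference between bexarotene and vehicle within replicates 1 and 3 (vertical) against that within replicates 2 and 4 (horizontal) for the 34 genes, with the line of equality, filled where the groups do not overlap over all 8 libraries. For 25 genes the point lies above the line, and Nqo1, Sod1 and Ftl1 lie farthest above it among those positive on both axes. In the vehicle group, replicates 1 and 3 held Xist and replicates 2 and 4 Y-linked RNA.

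Other genes of the same pathways were taken from lists of their known roles. Of 104 tested, 70 were on the positive side, the median being 0.07, and 0 passed. At an unadjusted p under 0.05, 11 were higher and 4 lower (10.6% higher, against 4.88% of all genes), and 9 separated with bexarotene higher (8.65%, against 3.61%). Other peroxide and superoxide enzymes had a median of 0.32 with 4 of 6 positive, and other thioredoxin and methionine sulfoxide reductase genes one of 0.01 with 9 of 17. Other NRF2 pathway genes had a median of 0.14 with 18 of 22 positive, other glutathione genes 0.05 with 21 of 29, and other iron genes 0.03 with 15 of 23. Genes of selenoprotein synthesis and transport, on which the glutathione peroxidases and thioredoxin reductases depend, had a median of -0.04 with 3 of 7 positive.

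By the smallest p among those with at least 1 CPM, Park7 came first. Park7, the redox-sensing protein DJ-1, was at 80.3 ± 6.15 CPM with bexarotene and 63.6 ± 3.94 CPM with vehicle (SD, n = 4 each), a log2 fold change of 0.34 ± 0.08 (adjusted p = 0.375). Taldo1, of the pentose phosphate pathway that makes NADPH, had a log2 fold change of 0.26 ± 0.07, and the methylglyoxal-clearing enzyme gene Glo1 one of 0.25 ± 0.08, and the groups did not overlap for either. Glrx3, a glutaredoxin that carries iron-sulfur clusters, had a log2 fold change of 0.30 ± 0.10, and its groups did not overlap. Blvrb (0.50 ± 0.17), a reductase in heme breakdown, and Cbr1 (0.27 ± 0.11), a carbonyl reductase, had overlapping groups.

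Lower values were found for the neuronal glutamate and cysteine transporter gene Slc1a1, at 83.0 ± 2.06 CPM with bexarotene and 95.6 ± 4.88 CPM with vehicle (SD, n = 4 each). Its groups did not overlap, and the log2 fold change was -0.20 ± 0.07, adjusted p = 0.483. Ireb2, which encodes an iron regulatory protein, not the only one, that binds the ferritin elements shown above, had a log2 fold change of -0.27 ± 0.09 with overlapping groups. Its transcript is long, at 5770 nt, and that of Park7 is short, at 908 nt.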

How the data were processed

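The authors deposited 1 table of raw read counts per RefSeq transcript for 8 libraries. A Qiagen RNA kit and a stranded TruSeq mRNA kit were used, per the labels' protocols. Per the submitters' processing notes, the build was mm9 and edgeR was used; which aligner, counter and strand setting were used is not given in the sources used here. Columns were matched to samples by their description, and 0 columns were left out.

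The table has 28644 rows, and the row with the most counts on average stood for its symbol. Among the 34 genes, Gpx4 and Hmox2 had 2 rows each and Txnrd1 and Keap1 had 4 each. The levels given for these genes are those of 1 transcript row. With rows summed per symbol, the same 8 members separated. Rows passing edgeR's default filter (21285, for 16069 genes) were fitted with TMM factors and the quasi-likelihood F test (R 4.3.3, edgeR 4.0.16), with group as the only term and Benjamini-Hochberg adjustment over all rows. An adjusted p under 0.05 was called. CPM uses TMM-scaled totals, and log2 CPM a prior count of 2. Standard errors come from the F statistic. An exact two-sided permutation test was run per gene; its smallest possible p with 4 against 4 is 0.0286. The fit was tested on simulated data. Transcript length and GC content came from GENCODE M21, matched for all 34 genes, and the offset was a smooth fit per library (mgcv 1.9.3). DESeq2 1.42.0 was an alternative. The members and lists were chosen with earlier results of these data known. Values of every library are given for genes that were called, had an unadjusted p under 0.05, did not overlap between groups or led their role in level per kilobase. Of other pathway genes, up to 10 with the smallest p and at least 1 CPM are named, except 1 that is not reported here.

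The titles number replicates 1 to 4 in both groups. After subtraction of group means, libraries with the same number correlated at 0.43, 0.28, 0.14 and 0.16, all over 0.1, so a fit with the number as a block treats them as pairs. Bexarotene replicate 3 and vehicle replicate 1 correlated at 0.44, however, so pairs and library clusters cannot be told apart.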

Additional observations from a re-analysis of the deposited data

Results flagged for a closer look

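In 6 of the 68 sets of 4 libraries (34 genes in 2 groups), 1 library lay far from the other three; chance gives about 1 in 20. Among bexarotene libraries, Prdx1 was at 54.4 CPM in replicate 4, against 61.0 to 61.9 CPM in the others. Prdx6 was at 198 CPM in replicate 1, against 171 to 174 CPM, and Txnrd2 at 13.3 CPM in replicate 2, against 16.1 to 16.6 CPM. Among vehicle libraries, Cat was at 48.1 CPM in replicate 4, against 33.6 to 35.9 CPM in the others. Txnrd1 was at 44.8 CPM in replicate 1, against 40.1 to 40.5 CPM, and Gsta4 at 21.8 CPM in replicate 2, against 29.3 to 29.8 CPM.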

How the results depend on the processing

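Under 19 alternatives, 607 of 646 log2 fold changes of single genes kept their direction and their side of the threshold, 37 changed sign and 2 passed. The genes called numbered 104 with DESeq2, 710 in replicates 1 and 3 alone and 0 in replicates 2 and 4 alone, against 1; members called numbered 2 in replicates 1 and 3 alone, against 0. Members whose groups separated numbered 4 under the length and GC offset, 4 when the replicate block was added to it, 24 in replicates 1 and 3 (21 higher, against 29.9% of all genes) and 16 in replicates 2 and 4 (12 higher, against 18.5%). Of all genes, 3.61% separated upward over the 8 libraries, 8.51% with no low count filter and 3.99% to 6.77% with 1 library left out. The median of the members was 0.07, 0.08, 0.22 and 0.08 in these 4 settings. That of the other pathway genes was 0.04 with the offset, 0.10 with upper quartile factors or no composition factors, and 0.16 and 0.03 in replicates 1 and 3 and in 2 and 4. Leaving out 1 library gave 1 to 2 genes called, 0 members called, 8 to 13 members separated, member medians of 0.11 to 0.17 and other pathway medians of 0.08 to 0.11. The separated members could hardly number fewer than 8 there, since removing a library does not join groups that were apart. The replicate block alone changed no call, left the member median at 0.14 and left 8 separated.

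Sign changes were found in 13 of the 34 genes, all between -0.10 and 0.17 in the fit with TMM factors. With the offset, Prdx2 was at 0.0, Prdx4 -0.08, Txn2 -0.05, Srxn1 -0.04, Gclm 0.05, Gsta4 0.0 and Gstm5 -0.02; with the offset and block, Prdx2 -0.01, Prdx4 -0.08, Txn2 -0.05, Srxn1 -0.03, Gclm 0.06 and Gstm5 -0.01. In replicates 1 and 3, Gsr was at 0.08 and Hmox1 at -0.06. In replicates 2 and 4, Prdx2 was at -0.01, Prdx3 0.03, Txn2 -0.01, Txnrd2 -0.06, Srxn1 -0.10, Slc7a11 -0.13, Gclm 0.01 and Nfe2l2 -0.04. Prdx3 was at 0.02 with upper quartile or no composition factors, and Srxn1 at 0.0 with RLE factors and DESeq2. Leaving out 1 library gave -0.06 to 0.30 for Slc7a11, -0.07 to 0.10 for Srxn1, -0.07 to 0.05 for Prdx3 and -0.09 to 0.02 for Gsr. The cause was not tested.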

Other observations

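Osgin1, an NRF2 target that slows growth under oxidative stress, was low in all libraries, at 0.886 ± 0.106 CPM with bexarotene and 0.315 ± 0.18 CPM with vehicle (SD, n = 4 each). Its log2 fold change was 1.47 ± 0.51, the highest among the other pathway genes, and edgeR's quasi-likelihood test gave an adjusted p of 0.483. Its groups did not overlap. Gpx8, a peroxidase of the endoplasmic reticulum, was at 2.54 ± 0.593 CPM with bexarotene and 1.70 ± 0.194 CPM with vehicle, also with no overlap. Me1, a source of cytosolic NADPH, averaged 27.5 ± 0.95 CPM with bexarotene and 24.1 ± 1.85 CPM with vehicle, a log2 fold change of 0.19 ± 0.08. These 3 genes were chosen after their values were seen. Sepw1, a small selenoprotein with the highest level of the other pathway genes in bexarotene libraries, averaged 459 ± 62.3 CPM with bexarotene and 384 ± 45.7 CPM with vehicle, with overlapping groups.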
